A study of Mus musculus with 2 samples.

Results

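The protocadherins examined here were all genes whose symbol begins with Pcdh, symbols of the os and Rik kind left out. This gave 12 genes of the 19575 in the count table. Only 1 of them, Pcdha1, belongs to the clustered protocadherins, and 11 are non-clustered. The non-clustered genes comprise 4 delta-1 members (Pcdh1, Pcdh7, Pcdh9, Pcdh11x), 5 delta-2 members (Pcdh8, Pcdh10, Pcdh17, Pcdh18, Pcdh19), and Pcdh15 and Pcdh20. The counts come from nuclei of the prodynorphin (Pdyn) lineage, sorted on GFP from dorsal mouse lumbar spinal cord (segments L3 to L5). All mice carried Pdyn-IRES-Cre(+/-); R26-LSL-Sun1.eGFP(+/-), in which Cre expressed from the Pdyn locus switches on a GFP of the nuclear envelope, so that any cell with past Pdyn activity is kept. The naive library pooled 8 adult mice of either sex that had only isoflurane at postnatal day 3. The injured library pooled 8 adult mice of either sex that had the left hindpaw incised surgically at postnatal day 3. Each condition is thus 1 library with no replicate, and each interval below (95%) covers counting error only.

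Protocadherins are the largest group of the cadherin superfamily and are concentrated in the nervous system. Clustered genes are arrayed in alpha, beta and gamma families, in which each neuron expresses a small, partly random choice of variable exons, and the resulting proteins bind like proteins on other membranes and serve self-recognition of neurites. Non-clustered genes lie apart, each have their own promoter and their own regional pattern, and their delta members act in adhesion, axon growth and the formation of circuits.

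The counts sum to 30602222 UMIs (unique molecular identifiers, 1 per captured RNA molecule) over 4063 naive nuclei and 32934588 UMIs over 3547 injured nuclei. Median depth was 6955 UMIs per naive nucleus and 8464 per injured nucleus, and 3 barcodes occurred in both libraries. Nuclei were clustered without the protocadherin genes and named by marker genes. There were 2652 naive and 2241 injured inhibitory-like nuclei, 973 and 859 excitatory-like nuclei, and 106 and 48 nuclei resembling neurons that contact the cerebrospinal fluid (CSF-contacting-like). Of glia-like nuclei there were 54 and 47 astrocyte/ependymal-like, 42 and 45 oligodendrocyte-like, and 8 and 3 microglia-like. Clusters of 3 mixed kinds stayed unnamed, with 22 to 105 naive and 82 to 115 injured nuclei each. The naming of inhibitory-like and excitatory-like clusters set Gad1, Gad2, Slc32a1 and Slc6a5 against Slc17a6, the vesicular glutamate transporter. Levels of these genes thus follow the names by construction and are no check of them. Gad1 stood at 139 CPM (UMIs per 1000000 UMIs of the class) in naive inhibitory-like nuclei and 6.95 CPM in naive excitatory-like nuclei. Slc17a6 stood at 4.50 CPM and 219 CPM.

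Of the clustered genes, 58 are annotated (14 alpha, 22 beta, 22 gamma), all on chromosome 18 of mm10 (GRCm38, GENCODE M21) within chr18:36930184-37841873, a stretch of 912 kb. Pcdha1 was the only one with a row, and the other 57 are not analysed here. Each of those 57 has 0 kb of its span free of other annotated genes on the same strand, since the alpha genes and the gamma genes share their 3′ ends and 3 long protein-coding gene models (Gm42416, Gm37013, Gm37388) run across all 22 beta genes. Pcdha1, the most 5′ alpha gene (chr18:36930184-37187661, plus strand), has 9.02 kb of 257 kb free, or 3.50%. All 11 non-clustered members are free over 100% of their spans, and 1 further non-clustered gene, Pcdh12, is not analysed here. A count of Pcdha1 is therefore not a count of the alpha family, and the comparison of clustered with non-clustered genes below is between 1 gene and 11. Of the non-clustered members, 7 of 11 overlap 1 annotated gene on the opposite strand. That gene has counts in the table for Pcdh8, Pcdh10, Pcdh15 and Pcdh19, and is not analysed here for Pcdh1, Pcdh11x and Pcdh17, and reads of the pair cannot be told apart if the counting ignored strand. Annotated positions are chr14:79766775-79771312 for Pcdh8 (minus strand), chr3:49743296-49757325 for Pcdh18 (minus), chr14:93013410-93890679 for Pcdh9 (minus), chr5:57717967-58133230 for Pcdh7 (plus) and chr10:73099342-74649737 for Pcdh15 (plus).

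**Figure D1:**
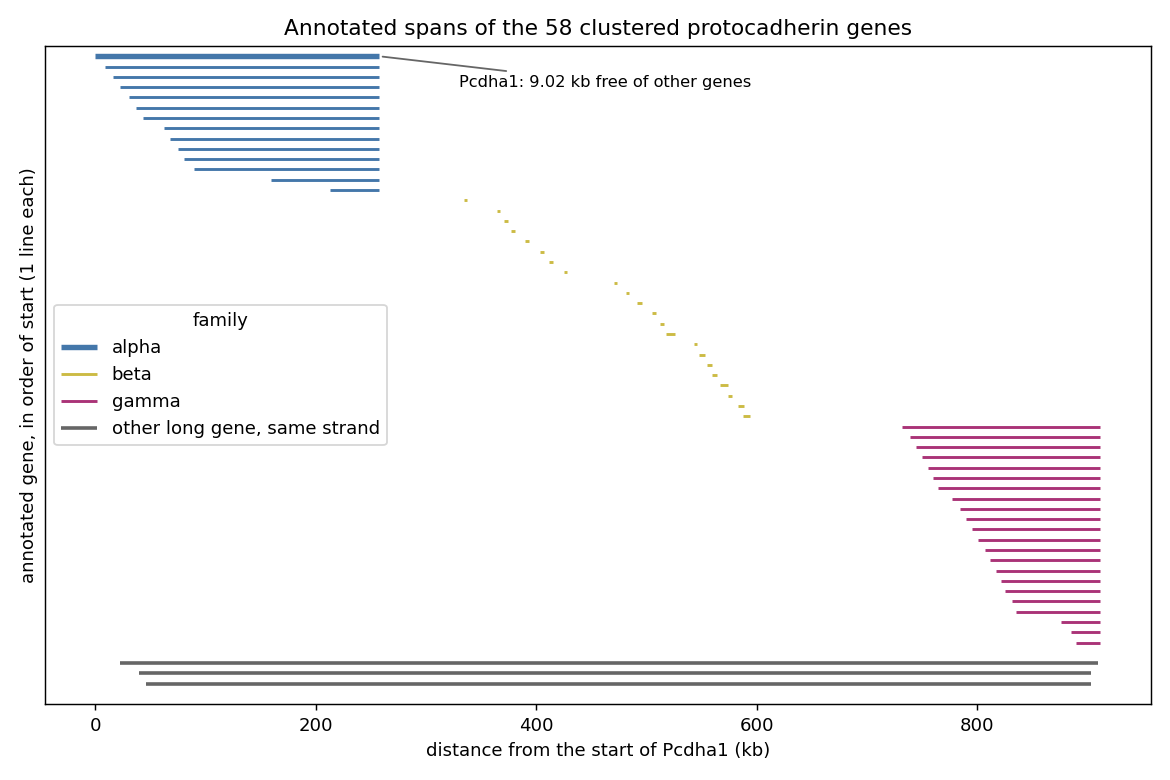
Spans of the 58 clustered protocadherin genes, 1 line per gene, against distance in kb from the start of Pcdha1. The thick line is Pcdha1, the only clustered gene with counts, and the grey lines are the 3 long same-strand genes that run across all 22 beta genes.

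The members differed widely in UMIs over both libraries. Pcdh9 gave 222482 UMIs, Pcdh7 74061 and Pcdh15 44871. Pcdh17 gave 15544, Pcdh11x 12936, Pcdh10 5061, Pcdh19 4724, Pcdh1 1601 and Pcdh8 1038. At the low end were Pcdh18 with 337 UMIs, Pcdha1 with 198 and Pcdh20 with 163. All 12 exceeded the minimum of 100 UMIs. The protocadherins together took 5216 CPM of naive and 5946 CPM of injured inhibitory-like nuclei, and 5599 and 6551 CPM of excitatory-like nuclei. Pcdh9 alone was 58.1% and 60.9% of that sum in inhibitory-like nuclei of these libraries.

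The UMI totals above, and the shares of protocadherin UMIs above and below, are not corrected for gene length. Levels were therefore also compared between genes per kb of annotated span. On that scale Pcdh8, a short gene of 4.54 kb, ranked highest in naive inhibitory-like nuclei with 5.32 CPM per kb, followed by Pcdh9 (877 kb) with 3.46, Pcdh7 (415 kb) with 2.65 and Pcdh17 (95.4 kb) with 2.20. Pcdh15, which spans 1550 kb, had 0.312 CPM per kb. Pcdha1 was lowest with 0.0129 CPM per kb, also lowest in naive excitatory-like nuclei with 0.00900. These values divide by its full span of 257 kb, of which only 9.02 kb is free of other same-strand genes. The non-clustered members are free over their whole spans, so the last place of Pcdha1 depends on the span used.

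The start regions of Pcdh8 and Pcdh18 are shown because these were the only members at least 2-fold apart between the neuron classes in both libraries, in opposite directions. Each runs from 250 bases before to 50 bases after the RefSeq start (GRCm38.p6), 5′ to 3′ on the minus strand, Pcdh8 at chr14:79771263-79771562 and Pcdh18 at chr3:49757267-49757566. Capitals mark matches on either strand to 3 common promoter motifs: the GC box, spelled GGGCGG, the CCAAT box, spelled as in its name, and the box spelled TATAAA. The matches do not overlap one another here.
Pcdh8: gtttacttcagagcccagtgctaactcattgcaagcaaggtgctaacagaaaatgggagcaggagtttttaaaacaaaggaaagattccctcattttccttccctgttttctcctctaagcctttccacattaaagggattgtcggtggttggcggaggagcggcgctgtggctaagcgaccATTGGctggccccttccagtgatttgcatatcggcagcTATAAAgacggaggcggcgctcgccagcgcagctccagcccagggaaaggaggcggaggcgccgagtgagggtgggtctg
Pcdh18: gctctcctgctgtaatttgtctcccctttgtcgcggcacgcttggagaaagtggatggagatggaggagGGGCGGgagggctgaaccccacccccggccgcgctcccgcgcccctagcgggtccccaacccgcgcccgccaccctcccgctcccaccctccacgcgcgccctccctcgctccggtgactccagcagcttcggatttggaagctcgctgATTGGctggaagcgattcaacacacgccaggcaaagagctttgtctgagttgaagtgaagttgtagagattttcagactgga
Both windows hold 1 CCAAT match. TATAAA occurs once in the Pcdh8 window, 30 bases before the start, and not in that of Pcdh18, and GGGCGG occurs once in the Pcdh18 window and not in that of Pcdh8. Of 32851 such windows, 37.4% hold CCAAT, 13.6% TATAAA and 35.7% GGGCGG.

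Inhibitory-like and excitatory-like nuclei were compared first. Pooled over each class, Pcdh8 was higher in inhibitory-like nuclei and Pcdh18 was higher in excitatory-like nuclei. No other member differed by 2-fold in both libraries. Neither difference held in every cluster of a class, as given with the clusters below. These are 2 of 12 members, against 8.02% of 13846 genes tested.

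Among delta-2 genes, Pcdh8, which is known to act in activity-dependent removal of cadherins from synapses, measured 24.1 CPM in naive and 20.8 CPM in injured inhibitory-like nuclei. In excitatory-like nuclei it measured 7.76 and 5.83 CPM. The inhibitory level was 3.11-fold higher in the naive library (2.40 to 4.08) and 3.57-fold in the injured library (2.68 to 4.83), and the intervals of the class levels did not overlap in either library. Pcdh18 measured 18.0 CPM (155 UMIs) in naive and 11.8 CPM (109 UMIs) in injured excitatory-like nuclei. In inhibitory-like nuclei it had 1.43 CPM (27 UMIs) and 1.67 CPM (32 UMIs). The excitatory level was 12.6-fold higher in the naive library (8.31 to 19.7) and 7.02-fold in the injured library (4.70 to 10.8).
Pcdh10, an adhesion gene that organises actin through the WAVE complex, was 1.61-fold (1.48 to 1.75) and 1.49-fold (1.37 to 1.63) higher in excitatory-like nuclei, short of the fold required. Pcdh17, which acts in presynaptic and axonal growth, was 1.52-fold and 1.45-fold higher there. Pcdh19, an X-linked gene in which mutations cause epilepsy, leaned the other way, 1.19-fold and 1.30-fold higher in inhibitory-like nuclei.

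Among delta-1 genes, Pcdh9 was nearly equal in the classes, 3032.5 and 3135 CPM in the naive library and 3623 and 3640 CPM in the injured library. Pcdh7, a gene of axon outgrowth, measured 1101 CPM in inhibitory-like and 941 CPM in excitatory-like naive nuclei, and 1159 and 1156 CPM in injured nuclei. The share of nuclei with Pcdh7 differed more than its level: 95.5% of naive excitatory-like nuclei held a Pcdh7 UMI against 68.1% of inhibitory-like nuclei. After thinning each nucleus to 3000 UMIs, the shares were 84.4% and 60.6%. The thinning left out 1 of 973 naive excitatory-like and 26 of 2652 naive inhibitory-like nuclei. Pcdh1 was 1.37-fold and 1.45-fold higher in inhibitory-like nuclei, and Pcdh11x 1.22-fold in the naive library only, with 1.02-fold (0.965 to 1.08) in the injured library.

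Outside the delta families, Pcdh15, best known as a tip-link protein of hair cells, was 1.71-fold (1.66 to 1.76) and 1.92-fold (1.87 to 1.98) higher in excitatory-like nuclei, short of the fold required. It stood at 483 CPM in naive and 533 CPM in injured inhibitory-like nuclei, against 825 and 1024 CPM in excitatory-like nuclei. Pcdh20 was low in both, with 2.49 and 2.04 CPM in inhibitory-like nuclei and 3.47 and 2.59 CPM in excitatory-like nuclei.

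The clustered gene gave no detectable difference at this depth. Pcdha1 measured 3.33 CPM (63 UMIs) in naive and 3.24 CPM (62 UMIs) in injured inhibitory-like nuclei, and 2.32 CPM (20 UMIs) and 3.02 CPM (28 UMIs) in excitatory-like nuclei. The inhibitory over excitatory ratio was 1.44 (0.859 to 2.51) in the naive and 1.07 (0.677 to 1.74) in the injured library, both intervals including 1. Pcdha1 was found in 2.34% of naive and 2.59% of injured inhibitory-like nuclei. After thinning to 3000 UMIs the shares were 1.10% (exact binomial interval 0.741 to 1.58) and 0.853% (0.514 to 1.33), with 26 and 13 nuclei left out. In excitatory-like nuclei, thinned shares were 0.926% (0.424 to 1.75) and 0.701% (0.258 to 1.52), with 1 and 3 nuclei left out. Of glia-like nuclei deep enough for thinning, 0 of 13 naive and 0 of 35 injured astrocyte/ependymal-like nuclei held a Pcdha1 UMI. A limit of 3 over the number of nuclei, not an exact interval, allows shares of up to 23.1% and 8.57%. These shares thus cannot be set apart from those of neurons. On the opposite strand of the clustered locus, 8 genes had counts, led by Gm37165 with 492 UMIs and Gm10545 with 296 UMIs, both more than Pcdha1. Gm37165 measured 8.63 CPM in naive and 8.11 CPM in injured inhibitory-like nuclei and 6.14 and 7.77 CPM in excitatory-like nuclei. Of those 8 genes, 4 lie within the span of Pcdha1 (Gm37751, Gm38225, Gm37753, Gm10545), and strandedness of the counting is not given in the sources used here.

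A nucleus typically held several non-clustered members. The median number of the 11 non-clustered genes with a UMI was 4 in inhibitory-like and 5 in excitatory-like nuclei of both libraries. Thinned to 3000 UMIs, the mean was 2.99 ± 1.32 (SD over nuclei) in naive and 3.04 ± 1.34 in injured inhibitory-like nuclei, and 3.73 ± 1.17 and 3.83 ± 1.16 in excitatory-like nuclei. At least 4 of the 11 were found in 32.7% and 34.4% of thinned inhibitory-like nuclei and in 57.0% and 61.0% of thinned excitatory-like nuclei.

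**Figure D2:**
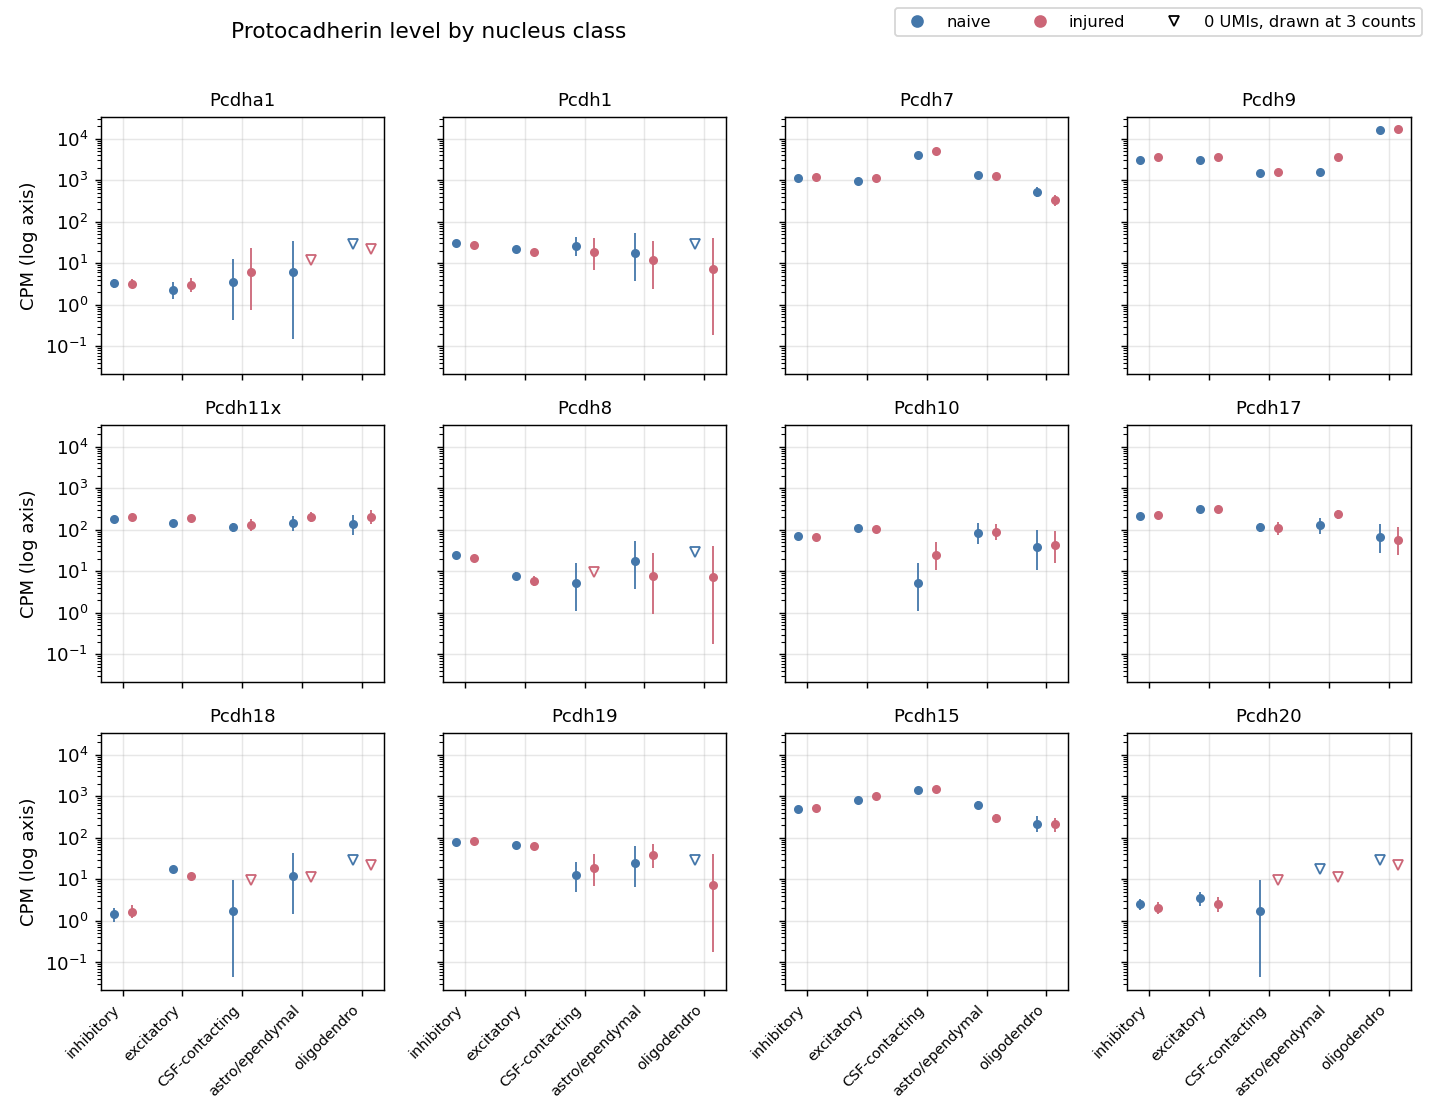
CPM (log axis) of each of the 12 members in 5 nucleus classes, naive in blue and injured in red, with exact Poisson intervals (95%); open triangles mark 0 UMIs, drawn at 3 counts. Pcdh9 is highest in oligodendrocyte-like nuclei, Pcdh7 in CSF-contacting-like nuclei, and Pcdh18 is 18.0 and 11.8 CPM in excitatory-like against 1.43 and 1.67 CPM in inhibitory-like nuclei.

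Neurons (inhibitory-like and excitatory-like together) were then set against glia-like nuclei. Pcdh19 and Pcdh1 were at least 2-fold higher in neurons and Pcdh9 at least 2-fold lower, 3 of 12 members, against 19.3% of 13960 genes tested. Glia-like nuclei had passed the GFP sort, were few, and were shallower, with medians of 2175 and 3503 UMIs in astrocyte/ependymal-like and 2146.5 and 2593 UMIs in oligodendrocyte-like nuclei. The summed neuronal transmitter genes (Gad1, Gad2, Slc32a1, Slc6a5, Slc17a6) stood at 124 and 107 CPM in glia-like nuclei against 420 and 390 CPM in neurons. UMIs of neuronal genes were thus present in glia-like nuclei, and their part in these ratios was not tested.

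Pcdh9 gave most of the protocadherin UMIs of oligodendrocyte-like nuclei. It measured 16283 CPM (naive) and 17168.5 CPM (injured), from 1695 and 2380 UMIs, against 3065 and 3629 CPM in neurons, 5.31-fold (5.06 to 5.58) and 4.73-fold (4.54 to 4.93) higher. It was present in 100% of oligodendrocyte-like nuclei in both libraries and made 94.3% and 95.2% of their protocadherin UMIs. The transmitter genes there were at 28.8 and 28.9 CPM, from 3 and 4 UMIs. In astrocyte/ependymal-like nuclei Pcdh9 was 1548 and 3589 CPM, so the naive value lay below the neuronal level and the injured one equalled it (ratio of neurons over these nuclei 1.98 and 1.01). Against oligodendrocyte-like nuclei alone, 4 of 12 members passed the fold, against 18.8% of 13883 genes: Pcdh9 as lower in neurons, and Pcdh15, Pcdh17 and Pcdh19 as higher. Pcdh15 was 2.67-fold (1.78 to 4.22) and 3.31-fold (2.31 to 4.95) higher in neurons, and Pcdh17 3.62-fold (1.76 to 9.02) and 4.45-fold (2.26 to 10.3). Pcdh19 had 0 and 1 UMIs in oligodendrocyte-like nuclei. Pcdh7, at 1.99-fold and 3.49-fold higher in neurons, fell short in the naive library.

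Pcdh19 measured 74.2 and 78.0 CPM in neurons and 13.8 and 27.3 CPM in glia-like nuclei (4 and 11 UMIs), ratios of 5.37 (2.09 to 19.7) and 2.85 (1.59 to 5.72). Pcdh1 rested on 3 and 4 UMIs in glia-like nuclei, and its ratios of 2.67 (0.910 to 13.0) and 2.48 (0.966 to 9.14) have intervals that include 1. Pcdh15 in naive astrocyte/ependymal-like nuclei stood at 629 CPM, but 3 of 54 nuclei carried 95.2% of its 104 UMIs. The remaining Pcdh15 UMIs over the UMI total of the whole class made 30.2 CPM. Likewise 72.9% of the 225 Pcdh7 UMIs in that class came from 3 nuclei. Without the 3 nuclei richest in each gene in each glia-like class and library, Pcdh10, Pcdh15 and Pcdh17 also passed 2-fold higher in neurons. Pcdh9 then no longer passed as lower. No neurons were left out, so this choice itself moves the ratios towards neurons, and no conclusion is drawn from it. In oligodendrocyte-like nuclei the remaining Pcdh9 UMIs over the whole class total still made 12441 (naive) and 13937 CPM (injured). Pcdh20 had 0 UMIs in glia-like nuclei of either library and Pcdh18 had 2 and 0, so a 2-fold difference of these was not detectable at this depth.

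In CSF-contacting-like nuclei Pcdh7 took 3994 CPM (naive) and 5148 CPM (injured) and was found in 100% of nuclei in both. Pcdh15 was 1452 and 1464 CPM, found in 99.1% and 95.8%. Pcdh9 was 1514 and 1564 CPM, 20.9% and 18.4% of protocadherin UMIs. Of its UMIs, 29.3% came from 3 of 106 naive nuclei and 38.8% from 3 of 48 injured nuclei. The remaining Pcdh9 UMIs over the UMI total of the whole class made 1070 and 958 CPM. For Pcdh7 the 3 richest nuclei carried 9.60% and 16.0%, and for Pcdh15 13.0% and 26.4%.

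Variation within the neuron classes was measured over 18 clusters with at least 40 nuclei in each library (10 inhibitory-like, 7 excitatory-like, 1 CSF-contacting-like). A member was counted where its highest cluster was at least 2 times its median cluster and was the same cluster in both libraries. This held for 5 of 10 members with enough UMIs, Pcdh8, Pcdh9, Pcdh10, Pcdh17 and Pcdh18, against 15.5% of 11927 genes tested. The count became 8 at a finer clustering (24 clusters), where Pcdh8 was not among them, and also 8 with equal weight per nucleus and without the deepest nuclei. Over all those genes the median of highest over median cluster was 1.68 (naive) and 1.71 (injured).

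Pcdh9 peaked in cluster 11 (led by Fbxl7 and Nxph2) with 9184 CPM in naive and 11149 CPM in injured nuclei, and was lowest in cluster 12 (led by Pax5) with 508 and 722 CPM. Both are inhibitory-like clusters, 18.1-fold and 15.4-fold apart. Pcdh10 peaked in the inhibitory-like cluster 10, led by Tac2, with 275 and 220 CPM, and stood at 5.33 and 25.1 CPM in the CSF-contacting-like cluster. Pcdh8 peaked in the inhibitory-like cluster 4, whose leading genes include Gal, with 62.7 and 54.9 CPM, against median clusters of 7.68 and 6.48 CPM. The inhibitory-like clusters 0, 1, 3, 6 and 10 stood between 17.1 and 41.9 CPM, but clusters 9, 11, 12 and 14 only between 1.04 and 5.27 CPM. These lie below the excitatory-like class levels of 7.76 and 5.83 CPM. The excitatory-like cluster 16 had 23.4 and 15.2 CPM of Pcdh8, and the other excitatory-like clusters between 2.10 and 9.80 CPM. Pcdh17 peaked in the excitatory-like cluster 17, led by Esr1 and Th, with 680 and 672 CPM against median clusters of 224 and 231 CPM. Pcdh18 peaked in the excitatory-like cluster 5, led by Aldh1a2, with 31.2 and 26.1 CPM and had 0 UMIs in 3 of 18 clusters of each library. These 5 genes thus peaked in 5 different clusters.

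Pcdh7 and Pcdh15 also varied widely, but their highest cluster was not the same in both libraries. Pcdh7 was 4317 CPM in cluster 14 (inhibitory-like, led by Atp10a) and 3994 CPM in the CSF-contacting-like cluster 15 of the naive library, and 5009 and 5148 CPM in the injured library. Its lowest values were 22.3 CPM in cluster 6 (naive) and 23.1 CPM in cluster 4 (injured), 194-fold and 222-fold below the highest. Clusters 4 and 6 were low in both libraries, at 27.9 and 22.3 CPM naive and 23.1 and 34.4 CPM injured. Pcdh15 was high in clusters 14, 21 and 7, with 3232, 2549 and 2148 CPM naive and 3311, 3314 and 2424 CPM injured. It was low in clusters 1, 3 and 4, between 22.8 and 31.4 CPM in either library. Cluster 14, highest in Pcdh7 and Pcdh15 of the naive library, had 113 and 118 CPM of Pcdh17, at or next to the lowest of all clusters.

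Pcdh11x, an X-linked gene with a Y-linked counterpart in humans, ranged from 13.7 to 360 CPM in the naive and from 7.16 to 368 CPM in the injured library, and was lowest in cluster 11, where Pcdh9 was highest. Pcdh19 ranged from 12.04 to 147 CPM and from 18.8 to 157 CPM. By highest over median cluster, Pcdh1 varied least of the members with enough UMIs, at 1.80 and 1.89. Its SD over clusters divided by the mean was 0.447 (naive) and 0.456 (injured), against 0.510 and 0.454 for Pcdh17. Pcdh1 had few UMIs in some clusters, with 7 and 2 in cluster 18. The cluster profiles of the naive and injured libraries were alike for most members, with a Spearman correlation over 18 clusters of 0.99 for Pcdh7, 0.97 for Pcdh19, 0.96 for Pcdh11x, 0.95 for Pcdh9, Pcdh10 and Pcdh15, 0.86 for Pcdh17, 0.80 for Pcdh8, 0.79 for Pcdh18 and 0.58 for Pcdh1. For Pcdh20 it was 0.29 and for Pcdha1 -0.15, the members with fewest UMIs. Of pairs of members, Pcdh11x and Pcdh7 had a Spearman correlation of 0.61 (naive) and 0.62 (injured), and Pcdh15 and Pcdh8 of -0.58 and -0.75. Both lie near the ends of the range over all pairs, and other pairs came close. Pcdh7 and Pcdh15 had 0.62 and 0.49, and Pcdh7 and Pcdh1 -0.49 and -0.67. Pcdh8 had few UMIs in some clusters, with 5 and 5 in cluster 11. The points are clusters that share a library, and genes of a cluster share its depth.

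The spread of Pcdha1 over clusters was near that of counting alone. For Pcdha1 the SD over clusters divided by the mean was 0.621 (naive) and 0.542 (injured), where counting alone would give 0.588 and 0.566. For Pcdh7 the same quantity was 1.04 and 1.06, where counting alone would give 0.0311 and 0.0301. For Pcdh18, with few UMIs like Pcdha1, it was 1.38 and 1.38 against 0.392 and 0.451. A spread of Pcdha1 smaller than its counting error was not detectable with 198 UMIs, so no flatness can be read from it.

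**Figure D3:**
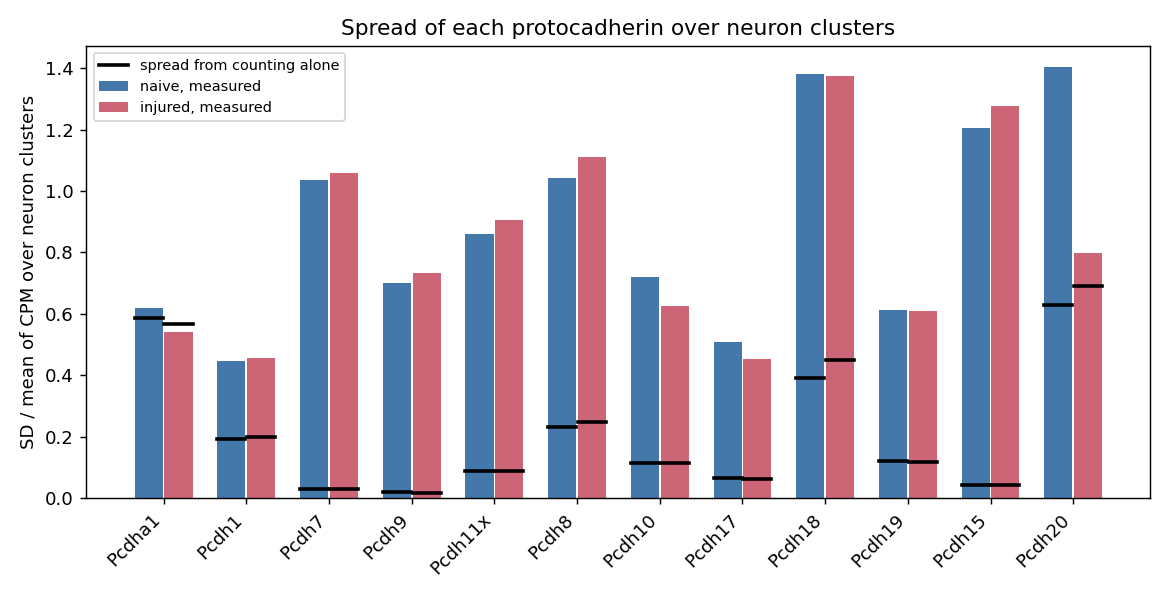
SD divided by mean of CPM over 18 neuron clusters (bars, from 0) for each of the 12 members in the naive (blue) and injured (red) library; black lines mark the spread that counting alone would give. Pcdha1 sits near its black lines at 0.621 and 0.542, and the well-counted members stand above theirs.

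**Figure D4:**
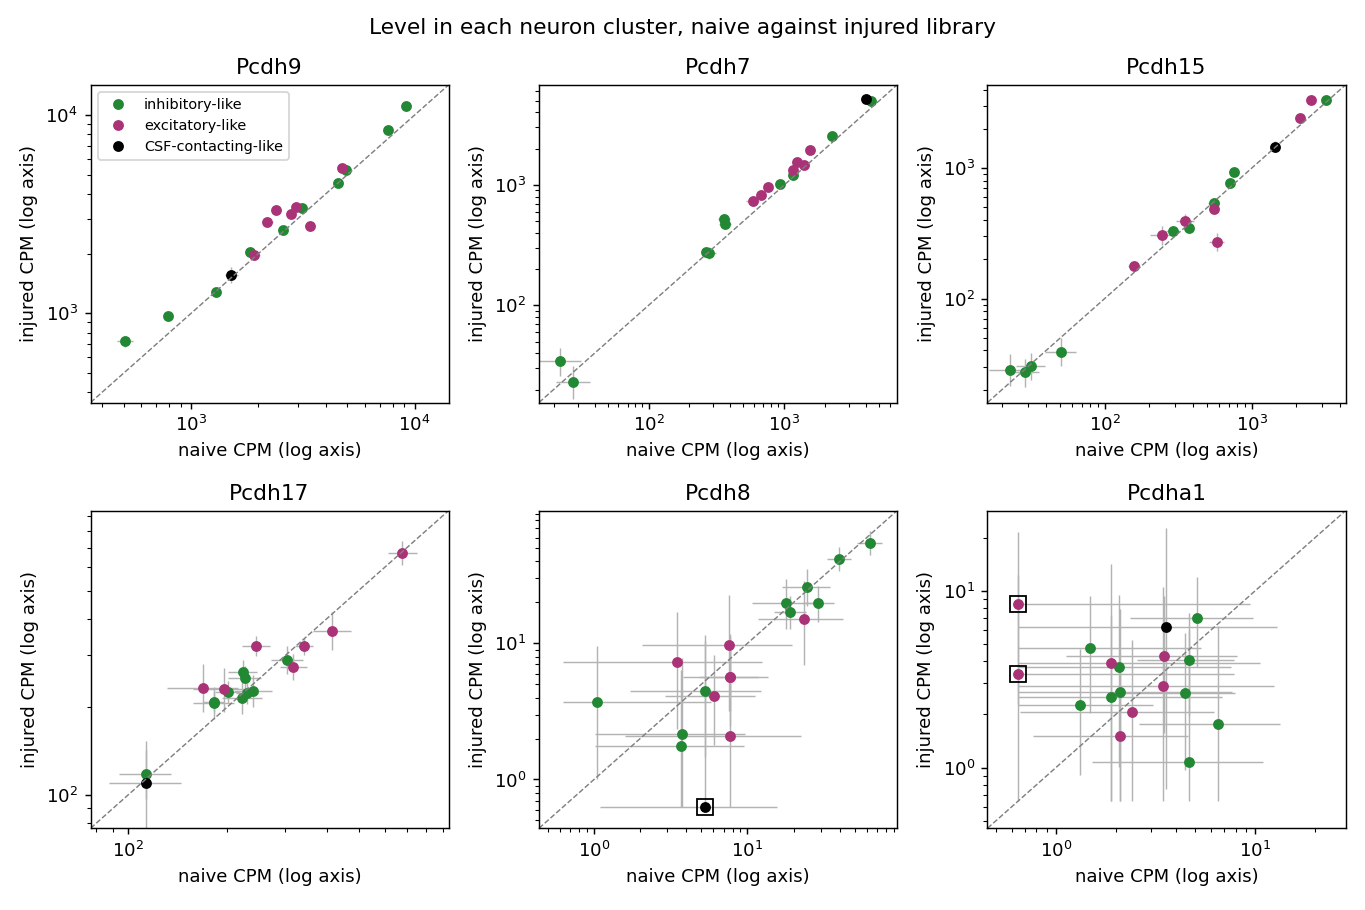
CPM in the injured against the naive library (log axes) for 6 members, 1 point per neuron cluster, coloured by class, with exact Poisson intervals (95%) in grey; boxed points have 0 UMIs in a library, and the dashed line marks equal levels. Clusters high in Pcdh9, Pcdh7, Pcdh15 or Pcdh17 in the naive library are mostly high in the injured library, with Pcdh15 in cluster 16 off the line at 578 and 274 CPM, while the 18 Pcdha1 points form no line.

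The last comparison set the injured library against the naive library. Within inhibitory-like nuclei no member with at least 100 UMIs differed by 1.5-fold, 0 of 10, against 2.32% of 12850 genes. Within excitatory-like nuclei Pcdh18 did, 1 of 10, against 2.58% of 11276 genes. Both conditions are single libraries, so a difference between them cannot be told apart from a difference between pools of mice or preparations, and no p-value exists.

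Pcdh9, Pcdh7, Pcdh15 and Pcdh11x were higher in the injured library in both neuron classes, each with an interval above 1. Pcdh9 was 3032.5 CPM in naive and 3623 CPM in injured inhibitory-like nuclei, 1.19-fold (1.18 to 1.21), and 1.16-fold (1.14 to 1.18) higher in excitatory-like nuclei. Pcdh7 was 1.05-fold (1.03 to 1.07) higher in inhibitory-like and 1.23-fold (1.19 to 1.26) in excitatory-like nuclei, and Pcdh15 1.10-fold (1.07 to 1.13) and 1.24-fold (1.20 to 1.28). Pcdh11x was 1.10-fold (1.05 to 1.16) and 1.32-fold (1.23 to 1.42) higher. Within clusters, Pcdh9 and Pcdh7 were each higher in the injured library in 16 of 18, with intervals above 1 in 12 of 18. Pcdh15 was higher in 11 and lower in 7, with intervals above 1 in 3 and below 1 in 2, and in cluster 16 it stood at 578 CPM naive and 274 CPM injured, a ratio of 0.474 (0.387 to 0.577). Pcdh11x was higher in 13 and lower in 5, with intervals above 1 in 2. Pcdh9 was lower in cluster 21, at 3403 CPM naive and 2771 CPM injured.

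These 4 genes span between 415 and 1550 kb, and gene length moved with the comparison. Among all genes tested in inhibitory-like nuclei, genes of 71.2 kb and more had a median log2 ratio of 0.03, with a 5th to 95th percentile of -0.22 to 0.31, and genes of up to 12.1 kb had a median of -0.21. The log2 ratios of Pcdh9 (0.26), Pcdh11x and Pcdh15 (0.14 each) and Pcdh7 (0.07) in inhibitory-like nuclei lie within that range. In excitatory-like nuclei, genes of 78.4 kb and more had a median of 0.03 and a 5th to 95th percentile of -0.23 to 0.26. There Pcdh11x (0.40), Pcdh15 (0.31) and Pcdh7 (0.30) lie above that range and Pcdh9 (0.22) within it. Both ranges take in all genes from 71.2 or 78.4 kb upwards and are not matched to the lengths of these 4 genes. Nuclei of the injured library were also deeper, with medians of 7871 against 6712 UMIs in inhibitory-like and 10045 against 8121 UMIs in excitatory-like nuclei. The part of length and depth in these ratios was not tested. The median gene of all tested stood at -0.08 in either class, so that relative to it each member is 0.08 higher on the log2 scale.

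The other members are given next. Pcdh18 measured 18.0 CPM in naive and 11.8 CPM in injured excitatory-like nuclei, a ratio of 0.655 (0.508 to 0.843). The call lies close to the fold required and was lost under 7 of 10 other settings. In 6 of these the log2 ratio, -0.61 as reported, fell short of the fold, at -0.51 with equal weight per nucleus, for example. In nuclei with Y-linked UMIs and no Xist UMIs the ratio was larger, at -1.23, but the gene had under 100 UMIs. Pcdh8 was 0.861 (0.751 to 0.987) in inhibitory-like and 0.751 (0.515 to 1.09) in excitatory-like nuclei. Pcdh1 was 0.909 (0.806 to 1.03) and 0.863 (0.699 to 1.07), and Pcdh10 0.989 (0.915 to 1.07) and 0.919 (0.839 to 1.01). Pcdh17 was 1.07 (1.02 to 1.12) and 1.02 (0.968 to 1.07), and Pcdh19 1.08 (1.01 to 1.16) and 0.988 (0.879 to 1.11). The clustered Pcdha1 was 0.973 (0.674 to 1.40) in inhibitory-like nuclei and 1.30 (0.709 to 2.44) in excitatory-like nuclei, the latter on 48 UMIs in all and below the minimum. The median log2 ratio of the 10 members tested was 0.08 in inhibitory-like and 0.00 in excitatory-like nuclei.

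**Figure D5:**
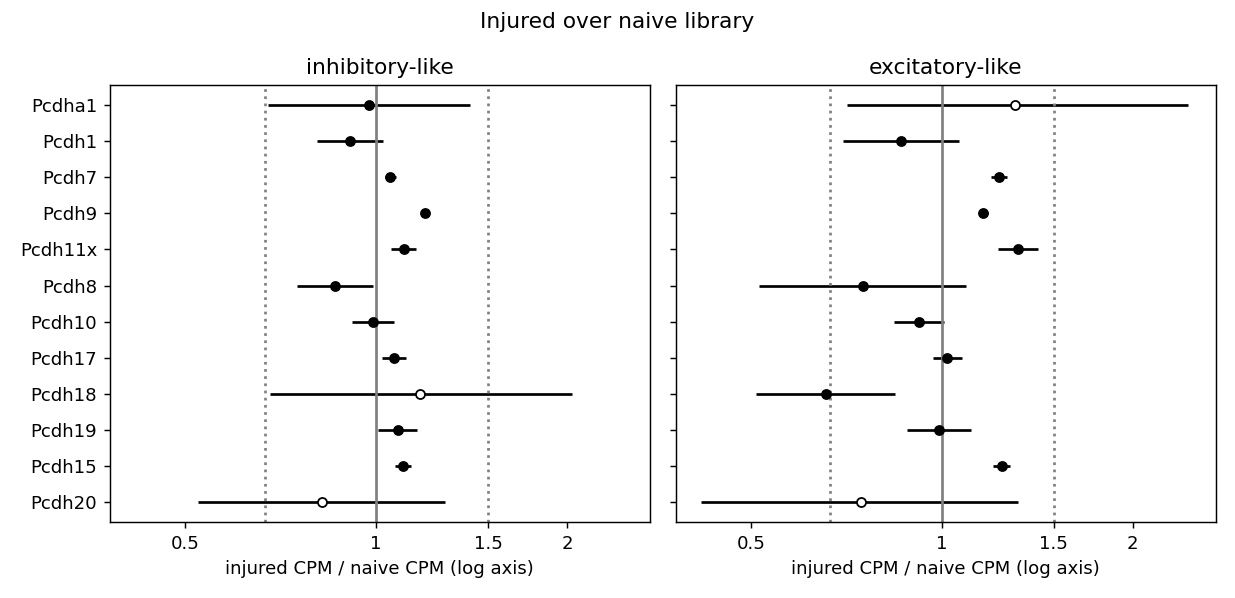
Injured over naive CPM (log axis) of the 12 members in inhibitory-like (left) and excitatory-like (right) nuclei, with exact conditional binomial intervals (95%); dotted lines mark 1.5-fold either way and open points have under 100 UMIs. Pcdh18 in excitatory-like nuclei, at 0.655, is the only filled point past a dotted line.

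In glia-like nuclei values are given side by side only. Pcdh9 was 16283 and 17168.5 CPM in naive and injured oligodendrocyte-like nuclei, a ratio of 1.05 (0.990 to 1.12), and 1548 and 3589 CPM in astrocyte/ependymal-like nuclei, a ratio of 2.32 (2.02 to 2.67). In the latter class 38.3% of the naive Pcdh9 UMIs came from 3 of 54 nuclei and 36.2% of the injured ones from 3 of 47. With the Pcdh9 UMIs of those nuclei left out, but the UMI total of the whole class kept, the values were 955.5 and 2291 CPM.

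Genes known to regulate the clustered locus or to bind protocadherins were read as background lists. Of 19 regulators, such as Ctcf and the cohesin genes, 18 were in the table and 17 had enough UMIs. Of these, 0 passed 2-fold between the neuron classes and 0 between neurons and glia-like nuclei, and 0 passed 1.5-fold between libraries in either class. Over all genes the shares were 8.02% between neuron classes, 19.3% between neurons and glia-like nuclei, and 2.32% (inhibitory-like) and 2.58% (excitatory-like) between libraries, for this list and the next. Ctcf, which loops promoters of the clustered locus to their enhancers, measured 63.3 and 65.4 CPM in inhibitory-like and 59.2 and 55.4 CPM in excitatory-like nuclei. Of 20 partner genes, of the WAVE complex and of protocadherin cleavage among others, 1 passed 2-fold between the neuron classes (Ptk2b, lower in inhibitory-like nuclei at ratios of 0.423 and 0.414). Ptk2b and Wasf2 passed as lower in neurons than in glia-like nuclei. Ppp1ca passed 1.5-fold between libraries in excitatory-like nuclei, with a ratio of 0.592 (0.447 to 0.780), 1 of 19 tested. Median log2 ratios of inhibitory over excitatory were 0.10 and 0.06 for the regulators and 0.05 and 0.09 for the partners, against -0.03 and -0.03 over all genes.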

How the data were processed

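Single nuclei were profiled by 10x 3′ v3 chemistry in 1 naive and 1 injured library. The table of counts holds UMI counts per gene and nucleus as the authors deposited them; the submitters' processing notes name Cell Ranger 3.0.2, Seurat and mm10, and how overlapping genes or introns were counted is not given in the sources used here. Per-library tables, as deposited, hold natural log values, ln(1 + 10000 × count / nucleus total), from which only each nucleus's library was read. Counts were summed per library and class and expressed as CPM. Nuclei were clustered (scanpy 1.11.5, leidenalg 0.10.2; 2000 variable genes, 30 components, 15 neighbours, resolution 1) without protocadherins, and named by markers. Inhibitory-like clusters had summed Gad1, Gad2, Slc32a1 and Slc6a5 at least 10 times Slc17a6. Excitatory-like clusters had Slc17a6 at least 4 times that sum. Glia-like clusters had glia markers at 2000 CPM or more and low neuron markers. No doublet caller was run; clusters with markers of 2 classes stayed unnamed. Intervals (95%) are exact Poisson, Clopper-Pearson or conditional binomial and cover counting error only. Fold calls used at least 100 UMIs, 2-fold between classes in both libraries and 1.5-fold between libraries. Only the 2-fold calls between classes were tested on simulated data, with Poisson counts and genes of over 2000 UMIs. Pcdh8, Pcdh18 and Pcdh1 have fewer UMIs. Calls between libraries and across clusters were not simulated. The members, the gene lists and the thresholds for naming classes were chosen with earlier results of these data known. All members reach 100 UMIs and may be named; list genes are named where they pass the fold, with Ctcf added after its values were seen. Spans come from GENCODE M21, and start regions from RefSeq, where 9 of 12 members matched and the 2 called between neuron classes are shown. Alternatives were other classings, weights, depths and filters.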

Additional observations from a re-analysis of the deposited data

How the results depend on the processing

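No paired analysis was possible because each condition is 1 pooled library. Pcdh8 and Pcdh18 remained the 2 members called between neuron classes under 6 alternatives, and the count was 2 without the parts of cluster 2 as well. The count between neurons and glia-like nuclei, 3, became 5 with nuclei classed by their own marker UMIs, with equal weight per nucleus, and after removal of the deepest 10% of nuclei. It was also 5 without the 3 glia-like nuclei richest in each gene, a choice that itself moves the ratios towards neurons. Pcdh15 and Pcdh17 were added in each. The 5 members counted for cluster variation became 8 at Leiden resolution 2.0, with equal weight per nucleus and without the 10% of deepest nuclei. Between libraries, inhibitory-like nuclei kept a count of 0 under all 10 alternatives, and the 1 call in excitatory-like nuclei became 0 at resolution 2.0, with equal weight per nucleus, without the deepest nuclei, in nuclei with Xist UMIs only, scaled to the median gene, and with equal cluster weights. It was also 0 in nuclei with Y-linked UMIs only, where the log2 ratio of Pcdh18 was larger (-1.23) on under 100 UMIs. The log2 ratio of Pcdh9 in inhibitory-like nuclei ranged from 0.14 (clusters given the same weight) to 0.34, against 0.26. In the same class Pcdh7 ranged from 0.01 to 0.17 (0.07 as reported) and Pcdh11x from 0.03 to 0.23 (0.14 as reported). Pcdh15 ranged from 0.07 to 0.22 there (0.14 as reported). Thinned to 2000 UMIs, the share of nuclei with a Pcdha1 UMI became 0.308% in naive excitatory-like and 0.493% in injured inhibitory-like nuclei. With Pcdh genes left among the variable genes the cluster count was 7. Equal cluster weights, omission of the parts of cluster 2 and omission of the 3 richest nuclei were chosen after seeing the data. The cause of the other changes was not tested. Glia-like classes, with at most 54 nuclei per library, and Pcdha1, with 198 UMIs, are limited by depth.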
